A study of Mus musculus with 15 samples.

Results

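The cell cycle and DNA replication genes described here are 42 genes chosen by symbol, 19 that act in S phase and 23 that act in mitosis, out of 55335 gene identifiers in the deposited table. All 42 were found and all 42 passed the filter on low values, which kept 15172 genes. Messenger RNA was measured by RNA sequencing of whole hearts of mouse embryos at E14.5. The genotype label was WT for 7 libraries, Adamts16+/- for 4 and Adamts16+/H355Q for 4. The Adamts16 protein is an enzyme that cells release into the matrix around them, where it cuts other proteins. Each mutant genotype keeps 1 unchanged allele by its label, and the labels give no Cre line, transgene, agent, sex, strain or litter. The series compares WT, mutant and knockout hearts, so each genotype was set against WT and the mutant genotypes against each other. Both comparisons with WT share the 7 WT libraries. The labels do not say that each library was a separate embryo, so every n counts libraries and p-values measure the spread between them.

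As background, a cell commits to division when D-type cyclins and their kinases inactivate the retinoblastoma proteins and free the E2F factors, which switch on genes of DNA replication. The MCM helicase is then loaded on origins, opened with Cdc45 and the GINS complex, and followed by DNA polymerases held on the template by the PCNA clamp. Genes of mitosis are expressed later, and many of them carry a CCAAT box and a cell cycle homology region (CHR), the element through which the DREAM and MYB-MuvB complexes act. Cardiomyocytes of the fetal mouse heart still divide, and they stop doing so soon after birth. In RNA from whole hearts, fewer cycling cells and less RNA per cycling cell cannot be told apart.

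The promoters are shown because the E2F, CHR and CCAAT elements known for cell cycle genes lie close to the start of transcription. RefSeq windows of the GRCm38.p6 build, from 250 bases before to 50 bases after the start of each gene, were matched by symbol for 15 of 19 S phase and 19 of 23 mitotic genes. The letters searched on both strands were TTTCCCGC, TTTGGCGC, TTTCGCGC and TTTGCCGC for an E2F site, TTTGAA and TTCGAA for a CHR, and CCAAT for a CCAAT box. No search word holds another, although neighbouring matches may overlap. E2F letters were in 7 of 15 S phase windows (46.7%), in 1 of 19 mitotic windows (5.26%) and in 2.32% of all 27025 promoters. CHR letters were in 15 of 19 mitotic windows (78.9%), in 3 of 15 S phase windows (20%) and in 19.4% of all promoters. Each of those 15 mitotic windows also held CCAAT, whereas 7.7% of all promoters held both. Such letters are matches, not sites shown to be bound. The windows of the 3 mitotic genes called between the mutant genotypes and of the replication genes Pcna and Pola1 are printed 5′ to 3′ along each gene, with the matches in capitals.
Aurka: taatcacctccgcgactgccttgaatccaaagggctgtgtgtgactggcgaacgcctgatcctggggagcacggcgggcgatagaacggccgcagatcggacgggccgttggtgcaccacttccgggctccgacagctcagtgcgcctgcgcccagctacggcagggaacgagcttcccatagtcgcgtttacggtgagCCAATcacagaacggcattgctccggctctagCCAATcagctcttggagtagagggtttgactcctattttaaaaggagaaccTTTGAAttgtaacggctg
Plk1: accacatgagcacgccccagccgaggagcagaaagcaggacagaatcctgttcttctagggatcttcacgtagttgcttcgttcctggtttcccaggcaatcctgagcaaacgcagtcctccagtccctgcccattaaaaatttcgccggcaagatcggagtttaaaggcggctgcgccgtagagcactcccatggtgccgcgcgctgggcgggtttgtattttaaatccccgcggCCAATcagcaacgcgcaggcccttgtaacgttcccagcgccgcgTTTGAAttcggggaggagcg
Ccnb1: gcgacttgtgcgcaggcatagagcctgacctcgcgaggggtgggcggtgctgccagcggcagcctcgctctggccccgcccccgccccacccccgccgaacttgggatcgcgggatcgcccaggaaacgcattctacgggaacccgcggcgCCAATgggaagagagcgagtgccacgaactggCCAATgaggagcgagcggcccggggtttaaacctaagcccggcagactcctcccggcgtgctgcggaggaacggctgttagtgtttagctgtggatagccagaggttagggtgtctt
Pcna: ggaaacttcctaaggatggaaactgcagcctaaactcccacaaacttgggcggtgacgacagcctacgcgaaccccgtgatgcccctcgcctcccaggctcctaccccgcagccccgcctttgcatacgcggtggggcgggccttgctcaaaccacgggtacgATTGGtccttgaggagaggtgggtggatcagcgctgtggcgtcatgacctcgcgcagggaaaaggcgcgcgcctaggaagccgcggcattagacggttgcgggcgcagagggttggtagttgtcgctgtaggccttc
Pola1: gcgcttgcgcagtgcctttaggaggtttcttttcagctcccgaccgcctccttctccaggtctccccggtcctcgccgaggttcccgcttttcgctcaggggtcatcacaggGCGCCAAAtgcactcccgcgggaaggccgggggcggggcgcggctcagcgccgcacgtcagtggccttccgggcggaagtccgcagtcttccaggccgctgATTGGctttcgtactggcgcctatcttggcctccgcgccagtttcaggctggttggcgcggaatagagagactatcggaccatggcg
The Aurka window is chr2:172370521-172370820 on the minus strand, with CCAAT from positions -51 and -19 relative to the RefSeq start and TTTGAA from position 33. All positions here count from the RefSeq start, which can differ from the start in the GENCODE gene coordinates given below. The Plk1 window is chr7:122159185-122159484 on the plus strand, with CCAAT from position -14 and TTTGAA from position 31. The Ccnb1 window, chr13:100786437-100786736 on the minus strand, held CCAAT from positions -99 and -67 and neither CHR word. The Pcna window, chr2:132253131-132253430 on the minus strand, held the CCAAT box on the opposite strand, which here begins at position -87, and no E2F word. The Pola1 window, chrX:93632106-93632405 on the minus strand, held GCGCCAAA, an E2F word on the opposite strand, from position -138 and an opposite-strand CCAAT box from position -37.

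Expression is given in FPKM, the number of fragments scaled by gene length and library size, as the authors deposited it. The depth implied by the smallest values of long genes was 37.1 to 58.1 M (1e6) fragments per library. This depth is an estimate, since the annotation behind the deposited FPKM is not given. Adamts16 itself was low everywhere, at 0.0324 to 0.235 FPKM in WT, 0.0635 to 0.235 FPKM in Adamts16+/- and 0.0677 to 0.125 FPKM in Adamts16+/H355Q, so it does not check the labels. In 9 of the 15 libraries both Xist and the Y-linked Ddx3y lay above 1 FPKM. Some libraries stood apart. On the first principal component of all genes (27.6% of the variance), WT libraries 1 to 4 lay at -19.6 to -12.2 with Adamts16+/- at -18.7 to -11.8, and WT libraries 5 to 7 lay at 8.02 to 36.1 with Adamts16+/H355Q at 8.49 to 23.1. Markers of heart cells were high in every library, with 10 cardiomyocyte markers summing to 9221 to 12636 FPKM. Markers of other organs varied: the sum of 10 thymus and T lineage markers was 0.640 to 25.4 FPKM in WT, 0.853 to 6.43 FPKM in Adamts16+/- and 0.750 to 20.3 FPKM in Adamts16+/H355Q, and that of 8 lung epithelium markers was 0.286 to 96.1, 0.927 to 10.99 and 0.363 to 5.30 FPKM. None of these markers was at 0 in every library. The thymus markers were highest in WT library 7 and also stood above the rest in Adamts16+/- libraries 1 and 2 and Adamts16+/H355Q libraries 2 and 4.

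All 42 genes were well expressed in every library. The median of the genes' mean levels was 13.3 FPKM in the S phase class and 24.98 FPKM in the mitotic class, against 4.46 FPKM over all genes tested. The highest was Mki67, the gene of the Ki-67 antigen of cycling cells, at a mean of 73.6 FPKM over 15 libraries. It was followed by Pcna at 63.6, the DNA topoisomerase gene Top2a at 61.4 and the cyclin A gene Ccna2 at 56.0 FPKM. The lowest was Pole, the catalytic subunit of DNA polymerase epsilon, at 5.40 FPKM.

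Levels moved little from library to library. The ratio of the highest to the lowest library had a median of 1.42 in the S phase class and 1.41 in the mitotic class, against 1.67 over all genes tested. It ran from 1.17 for Bub1b, a spindle checkpoint kinase, to 1.98 for Rrm2, the small subunit of ribonucleotide reductase. The median SD within genotypes was 0.12 on the log2 scale in both classes and 0.16 over all genes. All genes tested also had a lower median level, 4.46 FPKM, and the sets were not matched by level. Mki67 and Cenpf, a large kinetochore protein, were both highest in WT library 4 and lowest in WT library 6, which also held the lowest Cenpa and Cenpe. Cdc20, the activator of the anaphase-promoting complex, was highest in WT library 6 at 37.96 FPKM.

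**Figure D1:**
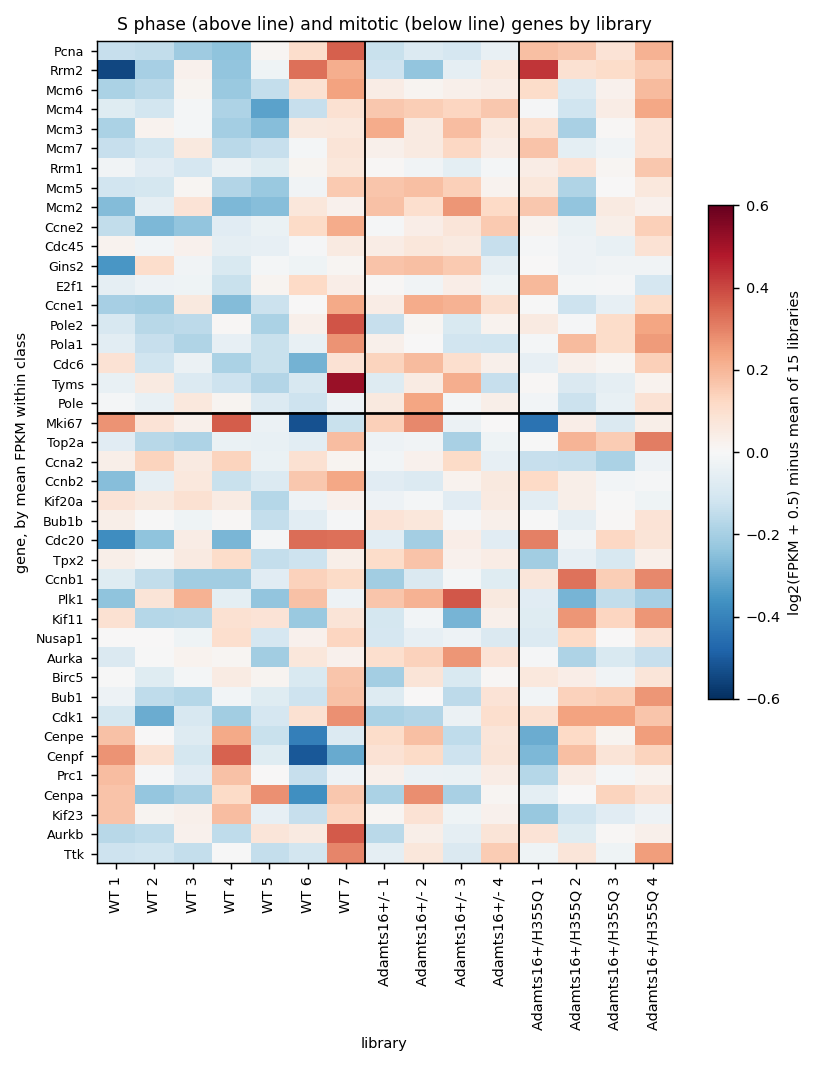
Heat map of log2(FPKM + 0.5) minus each gene's mean over 15 libraries, with the 19 S phase genes above the horizontal line and the 23 mitotic genes below it, each class ordered by mean FPKM. WT library 7 held the highest value for 7 S phase and 6 mitotic genes, and WT libraries 4 and 5 held the lowest value for 6 and 5 S phase genes.

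As class means, the mean log2(FPKM + 0.5) of the S phase genes was 3.93 ± 0.11 in WT (SD, n = 7), 4.02 ± 0.02 in Adamts16+/- (SD, n = 4) and 4.02 ± 0.07 in Adamts16+/H355Q (SD, n = 4). That of the mitotic genes was 4.51 ± 0.06, 4.52 ± 0.04 and 4.54 ± 0.06. The 3 genotypes overlapped in both classes, but in the S phase class every Adamts16+/- library lay above every WT library except number 7. WT library 7 had the highest mean of both classes, 4.14 and 4.61, while the other 6 WT libraries lay at 3.84 to 3.99 and 4.44 to 4.56.

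**Figure D2:**
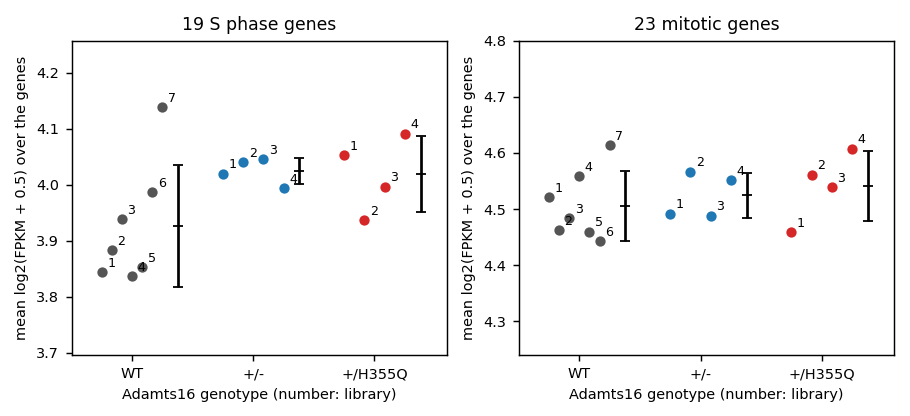
Mean log2(FPKM + 0.5) over the 19 S phase genes (left) and the 23 mitotic genes (right), 1 point per library with its number, and bars giving each genotype's mean and SD. The S phase means of Adamts16+/- lie close together between 3.994 and 4.046. They are inside the WT range of 3.84 to 4.14 only through WT library 7, since WT library 6, the next highest, is at 3.987.

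In the S phase class no gene passed the test in any of the 3 comparisons. Tests were limma fits on log2(FPKM + 0.5) over all 15172 genes, with Benjamini-Hochberg adjustment and a call at an adjusted p under 0.05. For Adamts16+/- against WT, 0 of 19 genes were called, where 2.75% of all genes tested were, and 7 of 19 had an unadjusted p under 0.05, where 19.6% of all genes had. The differences of 15 of 19 genes lay above 0 with a median of 0.11, against 52.9% of all genes above 0 and a median of 0.01. Without WT libraries 1 to 4 that median was 0.01, with 10 of 19 above 0. The WT libraries left out there had S phase class means of 3.84 to 3.94. Those kept, WT libraries 5, 6 and 7, had 3.85, 3.99 and 4.14, beside a mean of 4.02 in each mutant genotype. For Adamts16+/H355Q against WT, 0 of 19 were called beside 0.376% of all genes, and 2 had an unadjusted p under 0.05, beside 18.3%. Of the 19, 18 lay above 0 with a median of 0.10, beside 56.2% of all genes and a median of 0.02. Without WT libraries 1 to 4 that median was 0.02, with 13 of 19 above 0. For Adamts16+/- against Adamts16+/H355Q, 0 of 19 were called beside 10% of all genes, and 1 had an unadjusted p under 0.05, beside 28.9%. Of the 19, 12 lay above 0 with a median of 0.03, beside 47.3% of all genes and a median of -0.02.

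The helicase genes Mcm4 and Mcm2 gave the smallest p-values of the class for Adamts16+/- against WT. Mcm4, a catalytic subunit of the MCM2-7 helicase (ENSMUSG00000022673, chr16:15623897-15637400 in GRCm38), was at 34.2, 33.9, 33.4 and 34.2 FPKM in the Adamts16+/- libraries. It was at 24.3 to 32.5 FPKM in WT (median 28.3) and at 30.3, 28.04, 31.5 and 35.9 FPKM in Adamts16+/H355Q. All 4 Adamts16+/- libraries lay above all 7 WT libraries and inside the Adamts16+/H355Q range. The log2 difference from WT was 0.26 (SE 0.0765, 95% interval 0.09 to 0.42), with an adjusted p of 0.0820 in the limma fit. Without WT library 7, Mcm4 was called (adjusted p = 0.0479), as were 2.53% of all genes. Over the 15 fits that left out 1 library the adjusted p ran from 0.0479 to 0.206.

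Mcm2, another subunit of that helicase (ENSMUSG00000002870, chr6:88883474-88898780), was at 19.4, 18.4, 20.7 and 18.6 FPKM in Adamts16+/-. It was at 14.1 to 18.1 FPKM in WT (median 16.5) and at 19.2, 14.4, 17.8 and 17.4 FPKM in Adamts16+/H355Q. Again the Adamts16+/- libraries lay above every WT library, and only library 1 of Adamts16+/H355Q reached them. The log2 difference from WT was 0.26 (SE 0.0906, adjusted p = 0.129). Mcm2 and Mcm4 were the S phase genes whose Adamts16+/- and WT libraries did not overlap, where 5.79% of all genes did not. The other 4 helicase genes overlapped, with differences of 0.21 for Mcm3, 0.19 for Mcm5, 0.12 for Mcm7 and 0.09 for Mcm6. Against WT in Adamts16+/H355Q the 6 helicase genes differed by 0.06 to 0.14 on the log2 scale.

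Of the members that load and open the helicase, Cdc6, Gins2 and Cdc45 did not pass the test. Cdc6, which loads MCM on origins, was at 5.94 to 6.70 FPKM in Adamts16+/-, 4.69 to 6.21 FPKM in WT and 5.60 to 6.46 FPKM in Adamts16+/H355Q, with a log2 difference of 0.20 for Adamts16+/- against WT. Gins2, a GINS subunit, differed by 0.17 in that comparison, but 65.4% of its 50-base words also lie in the overlapping gene Gse1, so its level is uncertain. Cdc45 differed by 0.01 and 0.00 from WT in the 2 mutant genotypes.

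At the replication fork, Pcna differed between the mutant genotypes without overlap but short of the threshold. Pcna, the sliding clamp (ENSMUSG00000027342, chr2:132249162-132253314), was at 57.5, 59.7, 58.8 and 61.2 FPKM in Adamts16+/- and at 71.7, 70.7, 66.8 and 73.2 FPKM in Adamts16+/H355Q. It was at 53.4 to 81.0 FPKM in WT (median 57.3), with WT library 7 the highest of all 15. The mutant genotypes did not overlap each other, which 25.7% of all genes did not, and both lay inside the WT range. The log2 difference of Adamts16+/- from Adamts16+/H355Q was -0.25 (SE 0.108, 95% interval -0.48 to -0.02, adjusted p = 0.141). It was called when WT library 7 was left out (adjusted p = 0.0356), as were 16.4% of all genes. WT libraries enter this comparison only through the shared estimate of spread. Of the words of Pcna, 19.1% are shared with the pseudogene Pcna-ps2, and reads of the 2 could be split.

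Pola1, the catalytic subunit of the polymerase that starts each new strand (ENSMUSG00000006678, chrX:93304767-93632155), was at 6.41, 7.45, 7.03 and 7.82 FPKM in Adamts16+/H355Q. It was at 6.61, 6.47, 5.92 and 5.91 FPKM in Adamts16+/- and at 5.64 to 7.89 FPKM in WT (median 6.17). The Adamts16+/H355Q libraries lay above every WT library but number 7, and library 1 overlapped Adamts16+/-. Adamts16+/H355Q differed from WT by 0.19 on the log2 scale (SE 0.0804, adjusted p = 0.239). Without WT library 7 both Pola1 and Pcna were called in that comparison, as were 9.36% of all genes. Pole2, the accessory subunit of polymerase epsilon, differed by 0.13 and Pole by 0.00.

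The members of nucleotide supply, Rrm1, Rrm2 and Tyms, did not pass the test. Rrm1, the large subunit of ribonucleotide reductase (ENSMUSG00000030978), was at 28.4, 29.2, 27.8 and 30.8 FPKM in Adamts16+/H355Q, at 27.6, 27.2, 26.5 and 27.3 FPKM in Adamts16+/- and at 25.7 to 28.9 FPKM in WT (median 26.9). The mutant genotypes did not overlap, and the log2 difference of Adamts16+/H355Q from WT was 0.10 (SE 0.0488, adjusted p = 0.272). Rrm2 was at 48.2 to 61.1 FPKM in Adamts16+/H355Q, above 38.2 to 47.2 FPKM in Adamts16+/-, while WT covered 30.8 to 56.9 FPKM. The log2 difference between the mutant genotypes was -0.28 for Rrm2 (adjusted p = 0.24) and -0.10 for Rrm1 (adjusted p = 0.268). Tyms, thymidylate synthase, lay at 4.92 to 8.27 FPKM over the WT libraries and at 5.06 to 6.62 FPKM in the mutant ones.

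Among the genes that drive entry into S phase, Ccne1, a cyclin E (ENSMUSG00000002068), was at 7.49, 8.56, 8.47 and 7.79 FPKM in Adamts16+/-. It was at 5.99 to 8.60 FPKM in WT (median 6.59) and at 7.24, 6.61, 7.002 and 7.89 FPKM in Adamts16+/H355Q. Adamts16+/- overlapped WT through WT libraries 3 and 7, and the difference of Adamts16+/- from WT was 0.21 (SE 0.0877, adjusted p = 0.192). Ccne2, the other cyclin E, differed by 0.13 and 0.10 from WT in Adamts16+/- and Adamts16+/H355Q. E2f1, the activator of many replication genes (ENSMUSG00000027490), was at 9.26, 9.09, 9.48 and 9.05 FPKM in Adamts16+/-, 10.6, 9.15, 9.18 and 8.57 FPKM in Adamts16+/H355Q and 8.36 to 10.1 FPKM in WT (median 9.05). Its 3 genotypes overlapped, with log2 differences of 0.01 and 0.03 from WT and 95% intervals of -0.12 to 0.14 and -0.10 to 0.16.

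In the mitotic class, Aurka and Plk1 were higher and Ccnb1 was lower in Adamts16+/- than in Adamts16+/H355Q, and no other member passed the test in any comparison. These are 3 of 23 mitotic genes, or 3 of all 42, where 10% of all genes tested were called, 5.71% higher and 4.33% lower, so the count does not set the members apart from other genes. Another 5 of the 23 had an unadjusted p under 0.05, where 28.9% of all genes did with the called ones included. The median difference was -0.04, with 10 of 23 above 0, beside -0.02 and 47.3% over all genes. Against WT, 0 of 23 were called for Adamts16+/- (2 with an unadjusted p under 0.05, median -0.01, 9 of 23 above 0) and 0 of 23 for Adamts16+/H355Q (6 with an unadjusted p under 0.05, median 0.04, 15 of 23 above 0). Over all genes 2.75% and 0.376% were called in these 2 comparisons. An unadjusted p under 0.05 was reached by 19.6% and 18.3% of all genes, and 52.9% and 56.2% lay above 0.

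**Figure D3:**
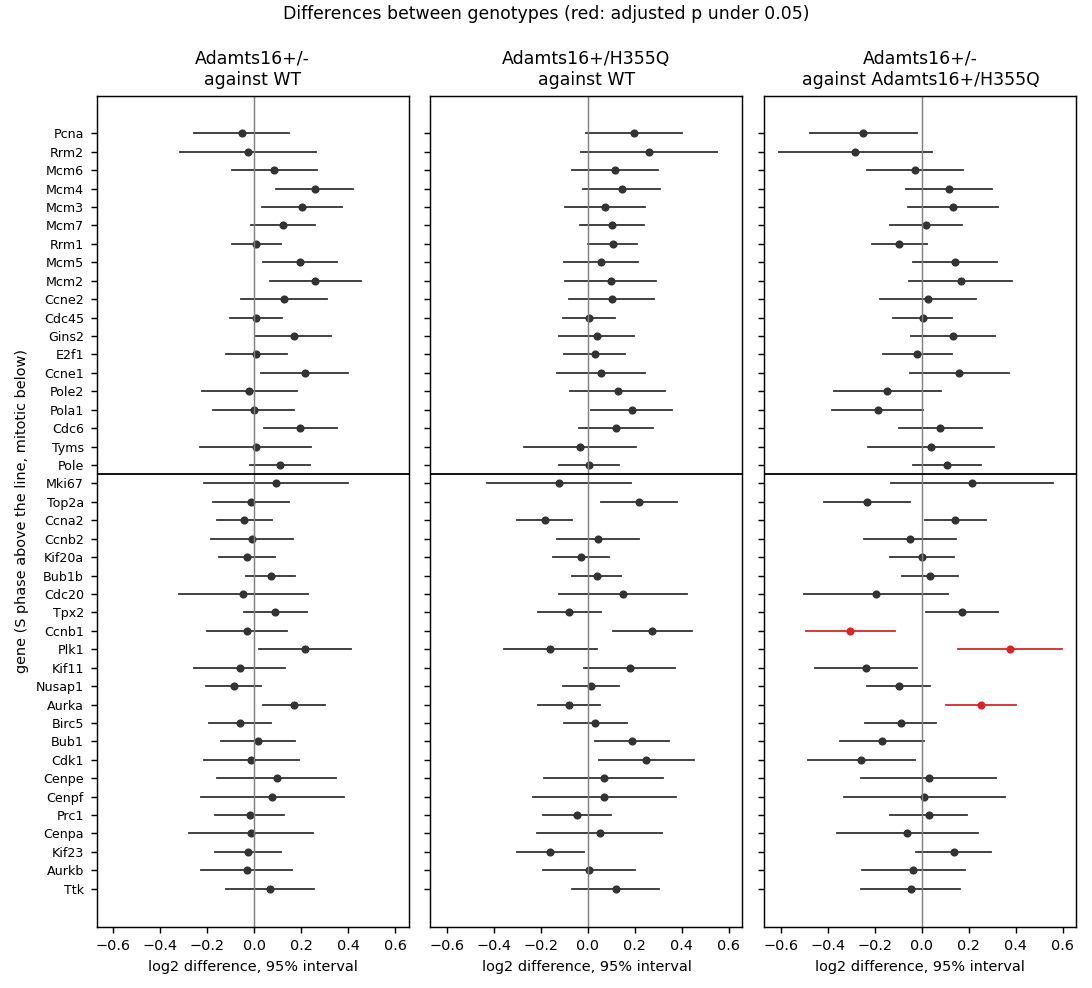
Log2 differences with 95% limma intervals of the 42 genes in the 3 comparisons, S phase genes above the line and mitotic genes below it, with the genes called at an adjusted p under 0.05 in red. The red points are Ccnb1 at -0.30, Plk1 at 0.38 and Aurka at 0.25, all in the comparison of the mutant genotypes.

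Aurka, the kinase that matures centrosomes and builds the spindle (ENSMUSG00000027496, chr2:172356190-172370535), was at 21.7, 22.3, 24.4 and 21.5 FPKM in Adamts16+/- and at 20.1, 17.7, 18.98 and 18.4 FPKM in Adamts16+/H355Q. WT was at 17.5 to 21.2 FPKM with a median of 20.4. Every Adamts16+/- library was above every library of both other genotypes. The log2 difference was 0.25 from Adamts16+/H355Q (SE 0.0694, 95% interval 0.10 to 0.40, adjusted p = 0.0347) and 0.17 from WT (SE 0.0615, adjusted p = 0.142). No 50-base word of Aurka is shared with another gene.

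Plk1, the kinase that drives entry into mitosis and its later steps (ENSMUSG00000030867, chr7:122159439-122169873), was at 28.9, 29.8, 33.4 and 26.8 FPKM in Adamts16+/- and at 24.5, 21.1, 23.2 and 22.3 FPKM in Adamts16+/H355Q. WT spread over both, at 21.7 to 29.8 FPKM with a median of 25.1. The mutant genotypes did not overlap each other, and each overlapped WT. The log2 difference between them was 0.38 (SE 0.104, 95% interval 0.15 to 0.60, adjusted p = 0.0355), and the differences from WT were 0.22 for Adamts16+/- (adjusted p = 0.212) and -0.16 for Adamts16+/H355Q (adjusted p = 0.363). The pseudogene Plk-ps1 and 1 other gene share 10.4% of its words.

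Ccnb1, the cyclin B that activates Cdk1 (ENSMUSG00000041431, chr13:100778650-100786570), was at 23.3, 25.4, 26.9 and 25.7 FPKM in Adamts16+/- and at 28.5, 34.1, 30.1 and 33.1 FPKM in Adamts16+/H355Q. WT was at 23.3 to 29.8 FPKM with a median of 25.7. The mutant genotypes did not overlap, and Adamts16+/H355Q reached into WT only through its library 1, below WT libraries 6 and 7. The log2 difference of Adamts16+/- was -0.30 from Adamts16+/H355Q (SE 0.0894, 95% interval -0.49 to -0.11, adjusted p = 0.0439), and that of Adamts16+/H355Q from WT was 0.27 (SE 0.0792, adjusted p = 0.109). Its level is uncertain, since 23.4% of its words are shared with Ccnb1-ps and 5 other genes.

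These 3 calls depended on the libraries. Over the 15 fits that left out 1 library, the adjusted p for Adamts16+/- against Adamts16+/H355Q ran from 0.0249 to 0.106 for Aurka, 0.0289 to 0.104 for Plk1 and 0.0248 to 0.128 for Ccnb1. Aurka was called in 9 of the 15 fits, Plk1 in 8 and Ccnb1 in 4. None of the 3 was called without Adamts16+/- library 1, 2 or 3 or without Adamts16+/H355Q library 2, 3 or 4, and without Adamts16+/H355Q library 1 only Aurka was. In the fits named here 1.89% to 6.67% of all genes were called. Adamts16+/H355Q libraries 2 and 4, which had the highest Ccnb1, are among the 5 libraries with the higher thymus markers. Without those 5 libraries, which leaves 2 libraries of each mutant genotype, the difference was -0.15 for Ccnb1, 0.22 for Aurka and 0.32 for Plk1, and none was called. In that fit 0.107% of all genes were called, against 10% as reported. With the level of the erythroid markers as a covariate the differences were -0.29, 0.22 and 0.33, and none was called, where 7.40% of all genes were.

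**Figure D4:**
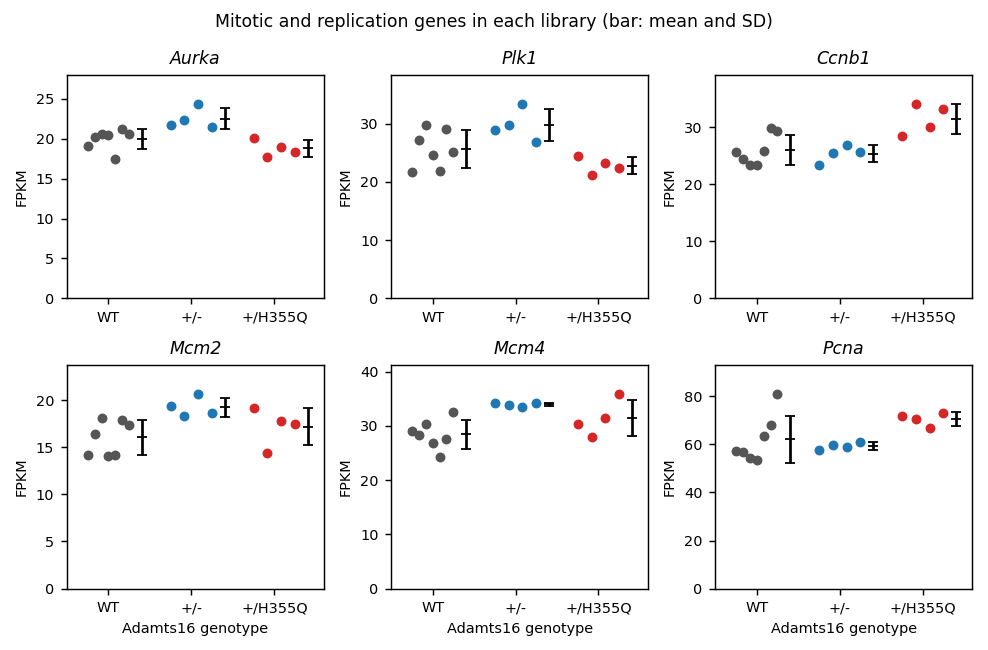
FPKM in each library, from 0, for 3 mitotic genes (Aurka, Plk1, Ccnb1) and 3 replication genes (Mcm2, Mcm4, Pcna), 1 point per library and bars for the mean and SD of each genotype. The Adamts16+/- points of Aurka (21.5 to 24.4 FPKM) lie above all others, and those of Plk1, Ccnb1 and Pcna are separate from the Adamts16+/H355Q points.

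The other cyclins and Cdk1 did not share 1 direction. Cdk1, the kinase of mitosis (ENSMUSG00000019942), was at 19.7, 21.9, 21.9 and 20.8 FPKM in Adamts16+/H355Q and at 16.1, 16.3, 18.02 and 19.9 FPKM in Adamts16+/-, with WT at 14.9 to 22.4 FPKM (median 17.2). The mutant genotypes overlapped only through Adamts16+/- library 4, and the difference of Adamts16+/H355Q from WT was 0.25 (SE 0.0949, adjusted p = 0.194). Ccna2, cyclin A, which partners kinases in S phase and at the entry into mitosis (ENSMUSG00000027715), was instead lowest in Adamts16+/H355Q, at 50.8, 50.5, 49.0 and 54.8 FPKM. It was at 55.3, 56.8, 60.6 and 53.9 FPKM in Adamts16+/- and at 54.3 to 61.3 FPKM in WT (median 57.9), so that library 4 of Adamts16+/H355Q alone reached the others. Its difference from WT was -0.18 (SE 0.0548, adjusted p = 0.116). Ccnb2, a further cyclin B, differed by -0.01 and 0.04 from WT. Of the words of Ccna2, 11.4% are shared with Exosc9.

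Of the general markers of cycling cells, Top2a, which untangles sister chromatids (ENSMUSG00000020914), was at 61.0, 70.4, 67.9 and 75.6 FPKM in Adamts16+/H355Q and at 59.7, 60.1, 53.3 and 60.0 FPKM in Adamts16+/-. WT was at 53.7 to 69.6 FPKM with a median of 58.4. The mutant genotypes did not overlap, and WT library 7 stood above the other 6 WT libraries, which reached 59.5 FPKM. The log2 differences were 0.22 for Adamts16+/H355Q against WT (SE 0.0758, adjusted p = 0.160) and -0.23 between the mutant genotypes (SE 0.0855, adjusted p = 0.0892). Mki67 (ENSMUSG00000031004) was at 80.3, 88.8, 71.0 and 72.8 FPKM in Adamts16+/- and 53.2, 74.6, 68.4 and 74.5 FPKM in Adamts16+/H355Q, with WT at 50.4 to 93.6 FPKM (median 74.3). Its 3 genotypes overlapped, and its WT difference was 0.09 with a 95% interval of -0.21 to 0.40 in Adamts16+/- and -0.12 with an interval of -0.43 to 0.18 in Adamts16+/H355Q. Differences of this size were not detectable at this spread.

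WT library 7 bore on all comparisons with Adamts16+/H355Q. Without it, 5 mitotic genes (Top2a, Ccna2, Ccnb1, Cdk1 and Bub1) were called in Adamts16+/H355Q against WT, as were 9.36% of all genes tested. Top2a was also called between the mutant genotypes, where 16.4% of all genes were. WT library 7 had the highest levels of both thymus and lung markers of the 7, a mean log2 of 0.94 for the thymus list against -0.81 or less in the other WT libraries. What part these markers have in the members' levels was not tested.

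The remaining mitotic genes did not pass the test in any comparison. Among the kinases and adaptors of the spindle checkpoint, Bub1 differed by 0.19 in Adamts16+/H355Q against WT (adjusted p = 0.20), and Bub1b by 0.07 and 0.04 and Ttk by 0.07 and 0.12 in Adamts16+/- and Adamts16+/H355Q against WT. Cdc20 differed by -0.05 and 0.15. Of the chromosomal passenger complex, Aurkb differed by -0.03 and 0.00 and Birc5, survivin, by -0.06 and 0.03. At the kinetochore, the centromeric histone Cenpa, the motor Cenpe and Cenpf differed from WT by -0.01 to 0.10 in either genotype, and their 3 genotypes overlapped.

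Motor and spindle genes were as close. Kif11, which pushes spindle poles apart, was at 24.3 to 30.8 FPKM in Adamts16+/H355Q, 21.0 to 26.1 FPKM in Adamts16+/- and 21.8 to 27.3 FPKM in WT. Kif23, a motor of the central spindle, was at 10.7 to 11.6 FPKM in Adamts16+/- and 9.21 to 10.6 FPKM in Adamts16+/H355Q, without overlap, with a difference of 0.14 (adjusted p = 0.25). Kif20a, needed for cytokinesis, differed by -0.03 from WT in both genotypes, and 25.2% of its words are shared with its neighbour Cdc23. Tpx2, the activator of the Aurka kinase, differed by 0.09 from WT in Adamts16+/- and by -0.08 in Adamts16+/H355Q, and by 0.17 between them (adjusted p = 0.13). The microtubule bundlers Nusap1 and Prc1 differed from WT by -0.09 to 0.01. In all, 8 members (Pcna, Rrm1, Rrm2, Top2a, Ccnb1, Plk1, Aurka and Kif23) did not overlap between the mutant genotypes, where 25.7% of all genes did not. For Adamts16+/H355Q against WT none of the 42 were without overlap, beside 2.65% of all genes.

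Transcript length moved with some libraries. The rank correlation of exonic length with each member's deviation from its mean ran from -0.71 in WT library 6 to 0.62 in WT library 1 over the 42 members, and from -0.29 to 0.28 over all genes tested. Long members such as Mki67 and Cenpf were lowest in WT library 6. For the differences between genotypes it was 0.07, 0.00 and 0.04 over the members in the 3 comparisons, and 0.24, -0.07 and 0.22 over all genes. These are descriptions across genes that share libraries, and what part length has in the members' levels was not tested.

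Other genes of the pathway were counted in 3 lists. Of 45 further replication genes, 1 was higher in Adamts16+/- than in WT (2.75% of all genes were called), Dnmt1, the maintenance DNA methyltransferase. In Adamts16+/H355Q against WT 0 were called (0.376% of all genes), and 12 of the 45 had an unadjusted p under 0.05, beside 18.3% of all genes. Between the mutant genotypes 1 was higher and 8 were lower in Adamts16+/-, where 5.71% of all genes were higher and 4.33% lower, and the median difference of the list was -0.08. Dnmt1 was at 31.9, 31.7, 30.3 and 27.8 FPKM in Adamts16+/-, 25.6, 21.7, 25.3 and 25.1 FPKM in Adamts16+/H355Q and 22.6 to 28.5 FPKM in WT (median 24.8). Only WT library 3 reached into the Adamts16+/- range, and the log2 differences were 0.29 from WT (adjusted p = 0.0377) and 0.31 from Adamts16+/H355Q (adjusted p = 0.0262). The call against WT was lost in 9 of the 15 fits that left out 1 library, among them WT libraries 1, 2, 5, 6 and 7. In the fits without those WT libraries 1.11% to 2.53% of all genes were called. Without the 5 libraries with the higher thymus markers the difference from Adamts16+/H355Q was 0.19 and was not called, where 0.107% of all genes were.

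The largest of the 8 that were lower was Rfc4, a subunit of the loader of the Pcna clamp, at 10.9, 10.3, 10.2 and 13.0 FPKM in Adamts16+/- and 18.03, 19.1, 17.3 and 19.6 FPKM in Adamts16+/H355Q. WT covered both, at 10.2 to 20.7 FPKM, and its libraries 1 to 4 were at 10.2 to 11.3 FPKM. The log2 difference between the mutant genotypes was -0.72 (SE 0.178, adjusted p = 0.0251). Gmnn, the inhibitor of origin licensing, differed by -0.35, the origin recognition subunit Orc5 by -0.31 and Rpa3, of the single-strand binding complex RPA, by -0.45, with adjusted p-values of 0.0244, 0.0234 and 0.0318. The others were Rpa2, Orc6, Tk1 and Dut. Without Adamts16+/- library 1 or 2 or Adamts16+/H355Q library 2, none of Rfc4, Gmnn, Orc5 and Rpa3 was called, where 1.89% to 2.48% of all genes were.

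Of 48 further mitotic genes, 0 were called against WT in either mutant genotype by limma. In each comparison 6 had an unadjusted p under 0.05, beside 19.6% and 18.3% of all genes for Adamts16+/- and Adamts16+/H355Q. Between the mutant genotypes 3 were higher and 2 were lower in Adamts16+/-, a share like the 10% called over all genes. Those that were higher were Kif18b, a microtubule-depolymerising kinesin, at 7.65 to 8.61 against 5.75 to 6.60 FPKM (difference 0.38, adjusted p = 0.0152), Incenp, the scaffold of the Aurkb complex (0.28, adjusted p = 0.0326), and the cytokinesis kinase Cit (0.40, adjusted p = 0.0476). Ndc80, the microtubule-binding kinetochore protein, was lower with a difference of -0.23 (adjusted p = 0.0413), as was the mitotic kinase Pbk with -0.52 (adjusted p = 0.0486). Of the 15 fits that left out 1 library, Kif18b was called in 14, Incenp in 9, Ndc80 in 5, Cit in 4 and Pbk in 3.

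Among the regulators of the G1 phase, of 28 listed, 4 were higher and 1 was lower in Adamts16+/- than in WT, where 2.75% of all genes were called, and 15 had an unadjusted p under 0.05, where 19.6% of all genes had. Ccnd1, a cyclin D that starts the cycle, was at 20.1, 19.9, 19.4 and 21.0 FPKM in Adamts16+/-, above 14.1 to 18.4 FPKM in WT (median 16.5) and 17.7, 16.1, 17.9 and 17.5 FPKM in Adamts16+/H355Q. No Adamts16+/- library overlapped another genotype, and the difference from WT was 0.32 (SE 0.0678, adjusted p = 0.0258). Ccnd2, another cyclin D, was at 50.9, 46.8, 50.1 and 52.4 FPKM, above 33.5 to 44.3 FPKM in WT (difference 0.37, adjusted p = 0.0456). Without WT libraries 5 to 7 that difference was 0.24 and was not called, where 0.39% of all genes were.

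Mycn, a Myc family factor known in heart development, was at 9.80, 8.47, 9.05 and 10.3 FPKM in Adamts16+/-, above 5.55 to 8.05 FPKM in WT (median 6.60), with Adamts16+/H355Q between at 9.19, 6.74, 8.81 and 7.52 FPKM. For Adamts16+/- against WT the log2 difference was 0.48 (SE 0.102, adjusted p = 0.0267). Myc itself was at 6.36, 5.58, 6.03 and 5.22 FPKM in Adamts16+/- against 3.15 to 5.32 FPKM in WT and 3.51 to 4.36 FPKM in Adamts16+/H355Q, with differences of 0.43 (adjusted p = 0.0437) and 0.50 (adjusted p = 0.0216). Without WT libraries 1 to 4 the Myc difference from WT was 0.26 and was not called. Cdkn2c, an inhibitor of the cyclin D kinases, went the other way, at 5.06, 5.002, 4.41 and 4.72 FPKM in Adamts16+/- and 5.98 to 8.48 FPKM in WT (median 6.67), a difference of -0.45 (SE 0.0984, adjusted p = 0.0296). In Adamts16+/H355Q it was at 6.15, 6.05, 4.72 and 4.34 FPKM, where libraries 1 and 2 lay in the WT range and library 3 in the Adamts16+/- range. None of these 5 calls against WT held without Adamts16+/- library 1, 2, 3 or 4, where 0.277% to 0.981% of all genes were called against 2.75% as reported. Over the 15 fits that left out 1 library the adjusted p ran from 0.0153 to 0.0882 for Ccnd1, 0.0422 to 0.140 for Ccnd2, 0.018 to 0.0993 for Mycn, 0.0321 to 0.151 for Myc and 0.0235 to 0.0891 for Cdkn2c.

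None of the 28 was called in Adamts16+/H355Q against WT, and 7 had an unadjusted p under 0.05, beside 18.3% of all genes. Between the mutant genotypes, where 10% of all genes were called, 5 were higher in Adamts16+/-: E2f4, a repressor E2F of resting cells, by 0.50, the atypical repressor E2f8 by 0.47, Myc, Trp53, the p53 gene, by 0.30, and the inhibitor Cdkn1c by 0.42. The 2 that were lower were Ccng2, a cyclin linked to arrest, with a difference of -0.44, and the antiproliferative gene Btg1 with -0.39. E2f4, E2f8 and Ccng2 were called in each of the 15 fits that left out 1 library. Over all 30 alternatives each was called in 29, and the highest limma adjusted p was 0.436, 0.358 and 0.334. E2f4 was at 19.8, 20.3, 20.6 and 15.6 FPKM in Adamts16+/-, with library 4 inside the WT range of 13.6 to 17.7 FPKM, and at 12.3 to 14.9 FPKM in Adamts16+/H355Q (adjusted p = 0.0133). Markers of other cell types are given beside these counts. Of 11 erythroid markers tested, Slc4a1 and Epb42 were called higher in Adamts16+/- against both other genotypes, while against WT 5 of the 11 lay above 0 and 6 below. The summed level of the erythroid list overlapped, at 15512 to 25012 FPKM in Adamts16+/-, 15538 to 32366 FPKM in WT and 11492 to 31121 FPKM in Adamts16+/H355Q. The 10 endothelial markers summed to 212 to 224 FPKM in Adamts16+/-, above 179.9 to 188 FPKM in Adamts16+/H355Q and inside the 167 to 238 FPKM of WT. Between the mutant genotypes 5 of them lay higher in Adamts16+/- without overlap (Pecam1, Cdh5, Kdr, Tie1 and Tek), where 25.7% of all genes did not overlap. None of these 5 was called, and Egfl7 was called lower. Of the 10 cardiomyocyte markers, Myh6 was called higher and Myl2 lower in Adamts16+/- than in Adamts16+/H355Q, and Tnni3 was called lower in Adamts16+/- against WT, as was Postn among 10 markers of epicardium and fibroblasts. Beside these marker calls, 10% of all genes were called between the mutant genotypes and 2.75% in Adamts16+/- against WT. Beyond the erythroid covariate, the part of these cell types in the cell cycle genes was not tested.

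**Figure D5:**
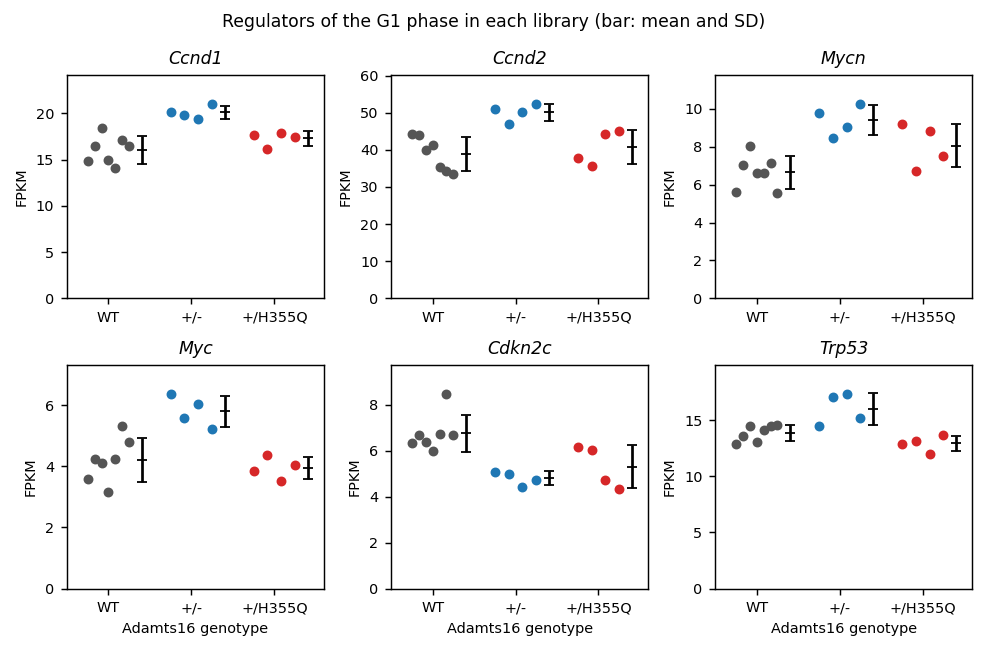
FPKM in each library, from 0, for 6 regulators of the G1 phase (Ccnd1, Ccnd2, Mycn, Myc, Cdkn2c, Trp53), 1 point per library and bars for the mean and SD of each genotype. The Adamts16+/- points of Ccnd1 (19.4 to 21.0 FPKM) and Ccnd2 (46.8 to 52.4 FPKM) lie above all others, and those of Cdkn2c lie below all WT points.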

How the data were processed

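Libraries were grouped by the genotype in the labels. Per the labels' protocols, RNA was taken from hearts with TRIzol and made into libraries with a VAHTS V6 kit. Per the submitters' processing notes, the tools were fastp, HISAT2, HTSeq, R 3.2.0 and DESeq2, with no role stated. The authors deposited FPKM values, for which a count model was not suitable. How FPKM was computed, on which build and with which annotation, is not given in the sources used here. Of the low values, 57.1% to 63.1% per library were whole multiples of a fragment's worth (tolerance 0.1), so whole reads were not recovered.

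GENCODE vM21 (GRCm38) gave symbols for 55154 of 55335 identifiers, exonic lengths and shared 50-base words. limma 3.58.1 in R 4.3.3 was run on log2(FPKM + 0.5) with a variance trend over the 15172 genes whose mean reached 0.5 FPKM. All 15 libraries were fitted together by genotype alone, and p-values were adjusted over all genes tested. Log2 differences on this scale understate the change of low genes. Correlations between libraries were 0.951 to 0.986, and no pair was identical. Same-numbered libraries of different genotypes did not deviate together (r -0.23 to 0.21), so they were not paired.

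Members were named with full values when called, when among the 2 smallest p-values of their class in a comparison, or when a general marker of the class. In each further list up to 5 called genes per comparison were named by smallest p, and any other called gene only by symbol or difference. The members, lists and rules were chosen with earlier results of these data known. Figures were drawn with matplotlib 3.10.9 in Python 3.11.15. Alternatives covered the pseudocount, filter, scaling, variance, weights, the replicate number as a block, an erythroid covariate and each library left out. Settings without WT libraries 5 to 7, without WT libraries 1 to 4, or without 5 libraries with higher thymus markers were chosen after seeing the data. The WT libraries were set apart by their expression, not by a label.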

Additional observations from a re-analysis of the deposited data

Results flagged for a closer look

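Among 111 groups of named genes and genotypes, 7 held a library far from the rest by Dixon's test at the 95% level, which chance alone flags in about 1 in 20 groups. Pola1 was at 7.89 FPKM in WT library 7, where the other 6 WT libraries were at 5.64 to 6.25 FPKM. Top2a was at 69.6 FPKM in that library, beside 53.7 to 59.5 FPKM in the others. Ndc80 was also highest there, at 6.82 FPKM beside 5.57 to 6.06 FPKM. Top2a was at 53.3 FPKM in Adamts16+/- library 3, beside 59.7 to 60.1 FPKM in the other 3. Cdkn2c was at 8.48 FPKM in WT library 6, beside 5.98 to 6.72 FPKM. Dnmt1 was at 21.7 FPKM in Adamts16+/H355Q library 2, beside 25.1 to 25.6 FPKM. E2f4 was at 15.6 FPKM in Adamts16+/- library 4, beside 19.8 to 20.6 FPKM.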

How the results depend on the processing

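In 30 alternatives no named gene that was called as reported or in the alternative changed sign. The counts called changed as follows, beside 0 S phase genes in each comparison and 0, 0 and 3 mitotic genes as reported. For Adamts16+/- against WT, TPM scaling called 2 S phase and 1 mitotic gene (591 genes higher and 163 lower over the whole table, against 238 and 179 as reported) and array weights 4 S phase genes (6.97% of all genes), and leaving out 1 library gave 0 to 1 S phase and 0 mitotic genes. For Adamts16+/H355Q against WT, array weights called 2 S phase and 5 mitotic genes (18.8% of all genes), the replicate block 5 and 6 (18.2%), leaving out WT libraries 5 to 7 called 4 and 7 (21.6%), and leaving out 1 library gave 0 to 2 and 0 to 5. Only WT has replicate numbers 5 to 7, so in the block fit those libraries each have their own term. They add nothing to the genotype differences there, as when they are left out. For Adamts16+/- against Adamts16+/H355Q, 1 S phase gene, Pcna, was called in a fit of the 2 genotypes alone (19.9% of all genes). Pcna was also called with array weights, with the replicate block, without WT libraries 5 to 7, and without WT libraries 1 to 4 (17.2%). In that comparison 0 mitotic genes were called with no filter (1.53% of all genes), with the erythroid covariate (7.40%) or without the libraries with thymus markers (0.107%). Array weights called 9 (28.7%), the replicate block 5 (19.3%) and leaving out WT libraries 5 to 7 called 5 (23.1%). Leaving out 1 library gave 0 to 4 mitotic and 0 to 1 S phase genes. The S phase members median log2 difference, Adamts16+/- against WT, was 0.00557 without WT libraries 1 to 4 (0.11 as reported). The mitotic median was 0.0604 with TPM scaling (-0.01 as reported), where the median over all genes was 0.0761 (0.0118 as reported). The unfiltered fit adjusted over 37951 genes, and leaving out libraries left fewer. The causes of the other changes were not tested. Over named genes, 524 alternative values kept a call, 226 lost it, 102 gained one, and 2134 uncalled values stayed uncalled with the same sign and 74 with the other.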
